A study of Schizosaccharomyces pombe with 4 samples.

Results

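Fkh2, a forkhead transcription factor of fission yeast (Schizosaccharomyces pombe), gave 4 peaks by chromatin immunoprecipitation and sequencing (ChIP-seq) at the genes gto1, ubp11, eis1 and mug124. The peaks were among the 20 with the most tags in a list of 152, and neither the RFX-family factor Sak1 nor the second forkhead factor Sep1 had a peak there. A peak was taken when its centre lay from 1000 bp upstream to 250 bp downstream of the annotated 5′ end of a gene of the 4, or when that 5′ end was the nearest of any protein-coding gene. By this rule 4 peaks were found among the 210 of all 3 lists, 4 in the Fkh2 list and 0 in each of the Sak1 and Sep1 lists. The members were chosen by their high Fkh2 tag count and by the lack of a Sak1 peak, so counts, ranks and that lack are given as a description with no test.

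Of the 4 samples, the Fkh2-TAP (strain JLP1586), Sak1-TAP (JLP1792) and Sep1-TAP (JLP1670) strains carried a C-terminal TAP tag, which binds IgG beads, and the untagged strain F108 was the control for peak calling. All were asynchronous cultures in YES medium, and the Sep1-TAP culture alone is labelled as treated, with 1 mM bortezomib, a proteasome inhibitor, for 45 min. Each sample is a pool of 2 biological experiments, so no replicate error can be had, and every interval below covers counting error only. The Fkh2, Sak1 and Sep1 libraries held 1042990, 795148 and 906632 tags, and the scaling used by the caller implies about 486279 tags for the untagged strain. The caller kept 2.78% of the candidate regions for Fkh2, 4.24% for Sak1 and 0.459% for Sep1.

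Forkhead factors bind DNA through a winged-helix domain, and in fission yeast Fkh2 and Sep1 are known for the periodic transcription of genes late in the cell cycle. A word that they recognise, called the forkhead word here, is GTAAACA, which reads TGTTTAC on the other strand. Apart from its core TAAACA, no other form of it was searched. RFX factors such as Sak1 bind words built on GTTGCCA or GTTACCA, and the MBF factor of G1/S transcription binds ACGCGT. The genes of the 4 peaks have no common function in the annotation. The gene gto1 (SPAC1039.11C) is annotated as an alpha-glucosidase, an enzyme that releases glucose from alpha-linked sugars, and ubp11 (SPBC19C2.04C) as a ubiquitin hydrolase, an enzyme that takes ubiquitin off proteins. The product of eis1 (SPCC63.14) is an assembly protein of eisosomes, the protein scaffolds beneath furrows of the plasma membrane. Genes named mug were found as transcripts raised in meiosis, and mug124 (SPBC19C2.06C) encodes a protein for which the annotation gives no function.

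The sequences under the peaks are printed because they show where the forkhead word lies and that the gto1 peak lacks it. They are read on the plus strand of assembly ASM294v3 from RefSeq. Capitals mark the forkhead word, at gto1 only its shorter core TAAACA, at eis1 also ACGCGT and at mug124 also GTTGCTA. The first runs 5 bases past the right edge of the peak to take in the core word. At eis1 only 30 bases around the centre are shown.
gto1, chrI:5475211-5475370: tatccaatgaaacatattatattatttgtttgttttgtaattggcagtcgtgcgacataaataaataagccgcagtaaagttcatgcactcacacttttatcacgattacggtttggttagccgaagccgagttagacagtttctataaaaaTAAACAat
ubp11, chrII:1679180-1679334: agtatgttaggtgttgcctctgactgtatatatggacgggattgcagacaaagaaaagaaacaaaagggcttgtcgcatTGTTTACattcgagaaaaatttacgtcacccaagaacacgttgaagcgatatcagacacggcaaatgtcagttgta
eis1, chrIII:862187-862216: tcctaaACGCGTcttttTGTTTACgtgtcg
mug124, chrII:1686772-1686926: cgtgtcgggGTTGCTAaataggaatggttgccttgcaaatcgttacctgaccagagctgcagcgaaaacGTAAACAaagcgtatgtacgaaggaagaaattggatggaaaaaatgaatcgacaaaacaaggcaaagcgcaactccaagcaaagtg

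Fkh2 tags at the 4 peaks were well above the middle of the list and fell into an upper and a lower pair. The deposited normalised tag count, which is set to a library of 10000000 tags, was 3806.4 at gto1 (397 tags, exact Poisson 95% interval 3441.1 to 4199.9). It was 3744.0 at ubp11 (390.5 tags, 3381.8 to 4134.4). The counts of this upper pair differ by less than their counting error. In the lower pair, eis1 had 2598.3 (271 tags, 2298.1 to 2926.8) and mug124 had 2224.4 (232 tags, 1947.4 to 2529.8), with intervals that overlap each other and neither of the upper pair. The median of all 152 peaks was 894.1. The peaks ranked 7 (tied with gas1), 9, 16 and 20 by count, in the order gto1, ubp11, eis1 and mug124.

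**Figure D1:**
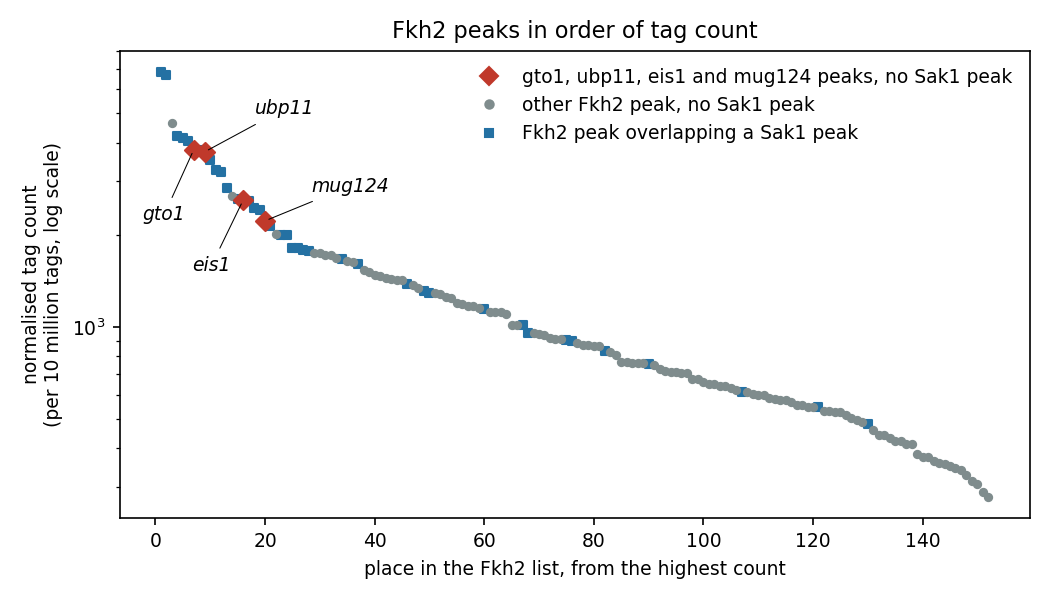
Normalised tag count (log scale) of the 152 Fkh2 peaks in order; diamonds are the 4 peaks, circles other peaks with no Sak1 peak and squares peaks that overlap a Sak1 peak. The diamonds stand among squares at the upper end, with counts of 3806.4 to 2224.4.

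None of the 4 overlapped a Sak1 peak or a Sep1 peak. The Sep1 list, from the treated culture, held only 11 peaks, against 47 for Sak1 and 152 for Fkh2. Its peaks held 0.11% of the Sep1 tags, against 1.93% of the Fkh2 tags for Fkh2. It gives no value where it has no peak, so the lack of a Sep1 peak does not give the Sep1 signal there. Of all Fkh2 peaks, 76.3% overlapped no Sak1 peak, 75.7% had no Sak1 centre within 1000 bp, and 94.7% overlapped no Sep1 peak; since the lack of Sak1 chose the genes, nothing is read from the first. Of the 20 Fkh2 peaks with a count of at least 2224.4, the count of mug124, 6 overlapped no Sak1 peak, and of the 132 peaks below, 110 did not. The limit and 4 of the 6 come from the choice of the genes, so nothing is read from these counts, and by fold over the untagged library 51 of the 78 peaks at or above the lowest fold of the 4 overlapped none. Besides the 4, the peaks without Sak1 among the 20 were the second peak upstream of ecm33, a cell surface protein gene (count 4664.5, rank 3), whose centre was 567 bp from a Sak1 centre, and the peak at pyk1, which encodes pyruvate kinase (count 2684.6, rank 14), 151 kb from one. All 7 peaks directly above or below one of the 4 by count overlapped a Sak1 peak, with centres 3 to 102 bp apart. They lay at SPCC306.11, gas1, SPCC1840.13, cdc15, fyu1, uds1 and nrd1, and 2 of them also overlapped a Sep1 peak. Since the 4 were chosen for lacking Sak1, mostly peaks with it were left beside them, and nothing is read from this either.

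The nearest Sak1 peak lay far from each of the 4. At mug124 it was 25.3 kb from the Fkh2 centre and at ubp11 32.9 kb, in both cases the peak at klp5, a kinesin gene. At eis1 it was 68.3 kb away, at emp24, and at gto1 146 kb away, at cdc4, the myosin light chain gene of the contractile ring. These distances lie around the median of 84.6 kb over all 116 Fkh2 peaks without Sak1. The nearest Sep1 peak was 167 kb (psy1, from eis1), 284 kb (knh4, from mug124), 291 kb (knh4, from ubp11) and 594 kb (gas1, from gto1) away.

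**Figure D2:**
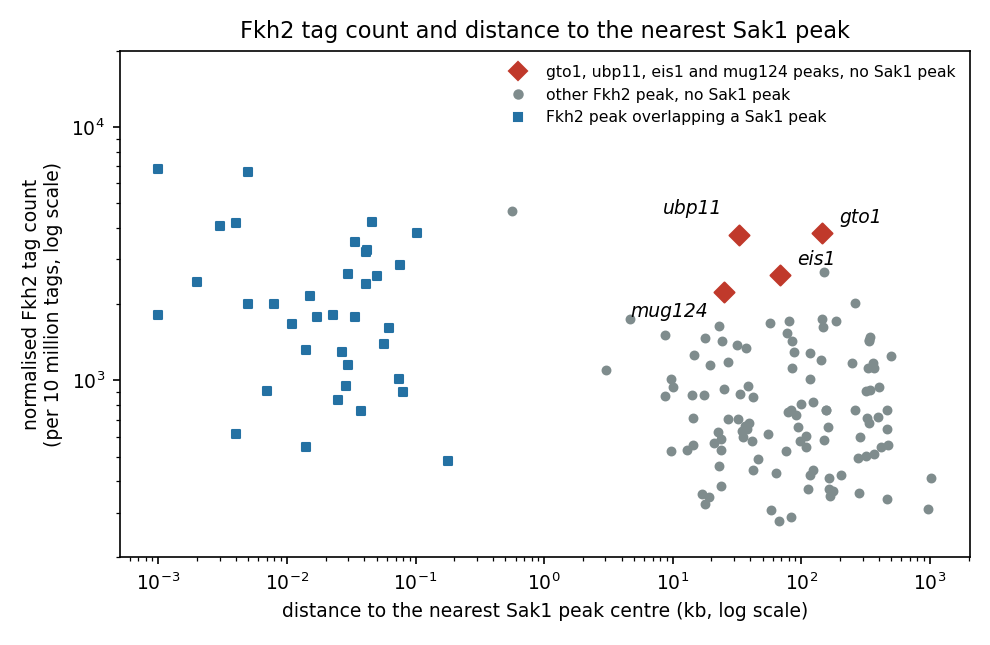
Normalised Fkh2 tag count against the distance to the nearest Sak1 peak centre, both on log scales; symbols as in the plot of ordered counts. The 4 diamonds lie between 25.3 and 146 kb, and the circle at 0.567 kb is the second ecm33 peak.

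The Sak1 list gives no value where it has no peak, so the lack of a peak does not give the Sak1 signal at these places, nor a firm upper limit for it. The tag limit of the caller for Sak1 was 35 tags, a normalised count of 440.2 and also the lowest count in the Sak1 list. It is 0.116 of the Fkh2 count at gto1, 0.118 at ubp11, 0.169 at eis1 and 0.198 at mug124. At the 36 peaks that both lists share, the Sak1 count was 0.254 to 4.14 times the Fkh2 count, with a median of 1.02. Those peaks had passed the Sak1 caller and the 4 had not, so the ratios are split by the Sak1 value itself and are no comparison of the 2 sets. A Sak1 region also had to reach 4 fold over the untagged library and over the surrounding 10000 bp. Of 1109 candidates, the untagged library removed 907 and the surrounding signal 155 more. A region with more than 35 tags could thus still be left out of the list. At gto1, eis1 and mug124 the untagged tags under the Fkh2 peak would set that limit at a Sak1 count of 41.1 (gto1), 329 (eis1) and 411 (mug124), below the 440.2 of the tag limit. At ubp11 they set it at 1439.8, or 0.385 of its Fkh2 count. These limits are approximate, since untagged tags were read over the 155 bp of a Fkh2 peak and Sak1 peaks are 235 bp wide, and they leave out the requirement over the surrounding 10000 bp, since the Sak1 signal there is not given in the lists.

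The 4 peaks spanned the whole range of untagged signal in the Fkh2 list. At ubp11, 182.4 scaled Fkh2 tags stood against 17.5 untagged tags, the highest untagged value of the 152 peaks, which gave 10.42 fold (counting interval 6.46 to 17.9). At gto1, 185.9 scaled tags stood against 0.5, the lowest value listed, which 13 peaks share. The listed fold of 371.79 there was the highest of the list and rests on almost no untagged tags. Against 3 untagged tags, a floor chosen after seeing the data, it would be 62.0, which is no lower bound for the fold. At eis1 the values were 126.7 and 4.0 tags (31.68 fold, 12.2 to 117) and at mug124 108.6 and 5.0 tags (21.71 fold, 9.14 to 67.3). The median over all Fkh2 peaks was 10.6 fold with 4.0 untagged tags. By fold over the untagged library the 4 ranked 1 (gto1), 78 (ubp11), 32 (eis1) and 41 (mug124), so ubp11, high by count, was in the middle by fold.

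**Figure D3:**
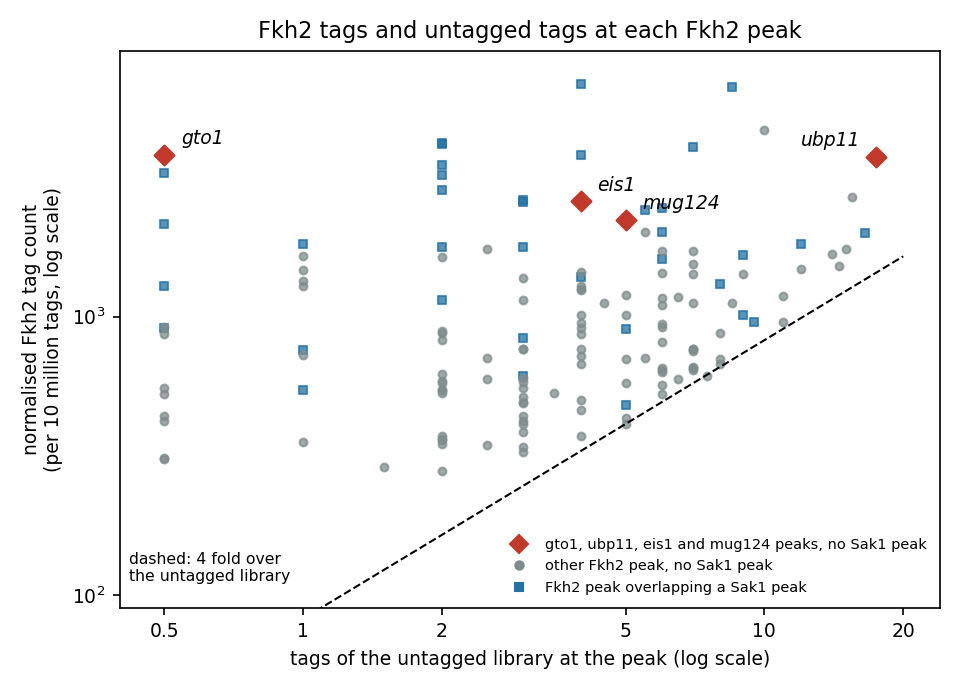
Normalised Fkh2 tag count against tags of the untagged library at each of the 152 Fkh2 peaks, both on log scales; the dashed line is 4 fold over the untagged library. The peaks at gto1 and ubp11 have like counts, 3806.4 and 3744.0, at opposite ends of the untagged range, 0.5 and 17.5 tags.

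Against the surrounding 10000 bp the order was another. The fold over the local background, as the caller gives it, was 27.35 at ubp11 (rank 4) and 25.14 at gto1 (rank 5), and 10.73 at eis1 (rank 36) and 7.6 at mug124 (rank 65), with a median of 6.91 over the list. The focus ratio, the caller's fraction of tags placed around the centre as at a point source, was 0.825 at gto1, 0.816 at ubp11, 0.798 at mug124 and 0.716 at eis1, against a median of 0.809. The eis1 peak was thus among the less focused, at rank 128 of 152, while the other three were near the middle.

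The peaks differed in their place relative to genes. The gto1 peak (chromosome I, 5475211 to 5475365) lay 343 bp upstream of the start of gto1, between protein-coding genes, and 1550 bp from SPAC922.03, an annotated 1-aminocyclopropane-1-carboxylate deaminase gene transcribed the other way. It covered parts of the long noncoding RNA genes SPNCRNA.1087 and SPNCRNA.276, and its centre was 90 bp inside the start of SPNCRNA.276, which runs on the strand of gto1. The ubp11 peak (II, 1679180 to 1679334) lay 653 bp upstream of ubp11, the farthest upstream of the 4, over SPNCRNA.5294. It was in a gap of 4256 bp between ubp11 and pat1, against a median gap of 1307 bp for the 97 Fkh2 peaks between protein-coding genes. Only 6 of those 97 lay in a longer gap. Of all 152 Fkh2 peaks, 85 (55.9%) had their centre over an annotated long noncoding RNA gene. Nothing is therefore read from such overlaps at gto1, ubp11 and mug124.

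The eis1 peak (III, 862119 to 862273) lay 228 bp upstream of eis1, but within the neighbouring gene SPCC63.13, a DNAJ-type chaperone gene on the same strand. Its centre was 4 bp past the end of the SPCC63.13 coding sequence, in the annotated 3′ UTR, and the 2 annotated genes overlap by 36 bp. The mug124 peak (II, 1686772 to 1686926) lay inside the coding sequence of mug124, 393 bp downstream of the gene start. It was 143 bp past the 250 bp limit and entered because no other gene start was nearer. The start of fba1, the aldolase gene on the other side, was 1472 bp away, and the antisense RNA gene SPNCRNA.1453 covered the peak. Of the 152 Fkh2 peaks, 29 (19.1%) were centred in coding sequence, 27 of them without a Sak1 peak, and mug124 had the second highest count among the 29.

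**Figure D4:**
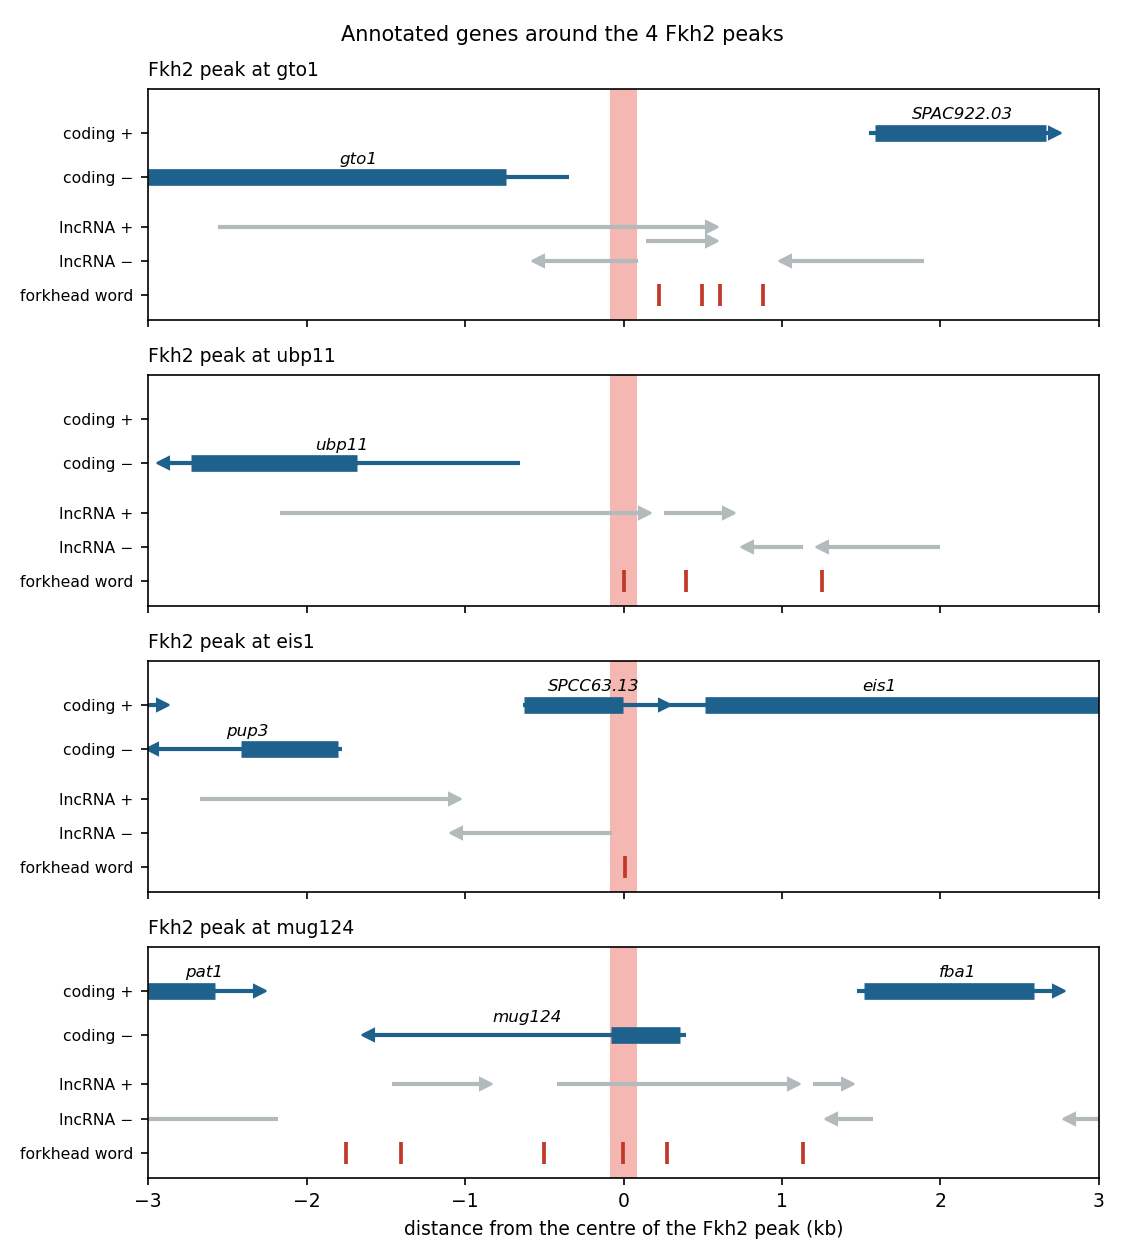
Annotated genes within 3 kb of the centre of each of the 4 Fkh2 peaks (pink band, 155 bp wide); thick bars are coding sequence, thin bars the rest of the gene, grey bars long noncoding RNA genes, red ticks forkhead words. The peaks at gto1 and ubp11 lie between protein-coding genes, that at eis1 at the end of SPCC63.13 and that at mug124 in its coding sequence.

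The peaks at ubp11 and mug124 were neighbours on chromosome II, with centres 7592 bp apart and no other Fkh2 peak between them. The single protein-coding gene between ubp11 and mug124 was pat1, which encodes the Ran1/Pat1 kinase, known for holding back meiosis. Its start was 3604 bp from the ubp11 centre and 3988 bp from the mug124 centre, so out of reach of both. Of all Fkh2 peaks, 21 (13.8%) had a closer neighbour, and the median distance to the next Fkh2 peak was 24.1 kb. The next Fkh2 peak was 26105 bp from the eis1 peak and 122567 bp from the gto1 peak.

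The forkhead word lay within 11 bp of the centre at 3 of the 4 peaks. It was 5 bp from the centre at ubp11 and at mug124 and 11 bp at eis1. Over the whole list, 73.7% of peaks had GTAAACA on either strand within 150 bp of the centre, and 22.4% (34 of 152) had it within 11 bp. The limit of 11 bp is the largest distance among these 3 peaks, so nothing is read from the share within it. The share within 150 bp was 72.4% for the 116 peaks without Sak1 (exact 95% interval 63.3 to 80.3%) and 77.8% for the 36 with Sak1 (60.8 to 89.9%), against 17.1% of windows of 301 bp just upstream of all 5113 protein-coding genes. Where it was present, the nearest word lay a median of 26.0 bp from the centre.

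**Figure D5:**
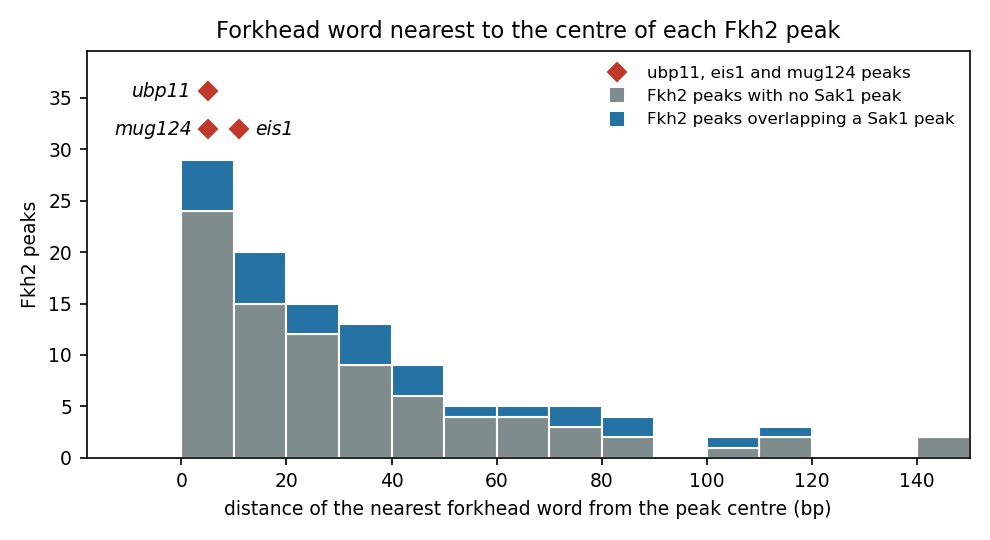
Histogram of the distance from the Fkh2 peak centre to the nearest forkhead word, for the 112 peaks that hold it within 150 bp, in bins of 10 bp; grey are peaks without and blue peaks with a Sak1 peak. Diamonds mark ubp11 and mug124 at 5 bp and eis1 at 11 bp; gto1 has no word in this range.

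At gto1 no GTAAACA lay within 150 bp of the centre, although only 1 of the 40 peaks without it had a higher count. The core TAAACA, which is part of GTAAACA, lay 77.5 bp from the centre, at the edge of the peak (45.3% of gene start windows and 84.2% of Fkh2 peaks held it within 150 bp). The nearest full word was 222 bp away, on the side away from gto1, and 3 more lay at 497, 611 and 881 bp on that side. These 4 words within 1000 bp compare with 2 at ubp11, 1 at eis1 and 3 at mug124 and with a median of 2.0 over all Fkh2 peaks. As many as 4 were found at 8.55% of Fkh2 peaks and at 1.17% of windows of that width around all gene starts. The gto1 peak was also the richest of the 4 in A and T, at 66.5%, against 59.4% at ubp11, 56.8% at eis1 and 55.5% at mug124 and a median of 60.0% over the list.

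The RFX words GTTGCCA and GTTACCA were absent within 150 bp of all 4 centres, as in most peaks without Sak1. They lay at 8 of the 116 Fkh2 peaks without Sak1 (6.90%, 3.02 to 13.1%) and at 14 of the 36 with it (38.9%, 23.1 to 56.5%), at 14.5% of all Fkh2 peaks and at 4.71% of gene start windows. Of these RFX words only the full form, with the final A, was searched. The printed ubp11 and mug124 sequences hold GTTGCC, and that of mug124 also GTTACC, each followed by T. How many other peaks hold these shorter forms was not counted. The nearest full GTTGCCA or GTTACCA at mug124 was 246 bp from the centre. GTTGCTA, a close form of GTTGCCA that was counted apart, was present at mug124, 65 bp from the centre. This form lay at 13.8% of all Fkh2 peaks and 5.26% of gene start windows. Its share was 5.17% of peaks without Sak1 (6 of 116) and 41.7% of those with Sak1 (15 of 36). The word ACGCGT lay at eis1 in 2 copies, 0.5 and 43.5 bp from the centre, one of them separated from the forkhead word by 5 bases in the sequence above. It was found at 11.2% of all Fkh2 peaks and 2.89% of gene start windows, and 3 of the 152 peaks held 2 or more copies.

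Relatives of the genes were looked up by reach alone (1000 bp upstream to 250 bp downstream), without the rule on the nearest start. Of 17 ubiquitin hydrolase genes named ubp or uch, ubp11 alone had a Fkh2 peak in reach, of 5 eisosome genes (eis1, fhn1, pil1, sle1 and slm1) eis1 alone, and of 7 genes with an alpha-glucosidase product gto1 alone; over all protein-coding genes 2.84% had one. Each of these lists was written around the gene that it holds, so a count of 1 is fixed by the choice, and with so few genes the lack of a further one is near the share over all genes. No gene of these 3 lists had a Sak1 or Sep1 peak in reach; over all genes 1.06% had a Sak1 peak and 0.176% a Sep1 peak. Of 91 mug genes, mug122, mug135 and mug24 had a Fkh2 peak in reach, also near that share. The gene mug124 itself did not, its peak being past the limit. Fkh2 peaks nearest to the starts of mug106, mug146, mug153 and mug116 were past the limit too, 289, 338, 519 and 550 bp downstream. None of those overlapped a Sak1 peak, and at mug106, mug146 and mug153 the centre was in coding sequence, as at mug124. Over the list, 76.3% of Fkh2 peaks overlapped no Sak1 peak, as did 27 of the 29 centred in coding sequence. These mug peaks were named for lying downstream of a gene start, so nothing is read from either trait. The mug122 peak (count 3274.2, rank 11) was shared with Sak1, while those at mug135 (1284.8, rank 52) and mug24 (1423.8, rank 44) were not.

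The 5 other Fkh2 peaks without Sak1 that were most like the 4 in count and untagged tags lay nearest to urg1, SPAC27E2.01, tps1, SPBC36.02C and atf21, that of SPBC36.02C 2538 bp from the gene start. They were taken as nearest to the median of the 4 in log2 normalised tag count and log2 untagged tags. Their counts were 1447.8 to 2013.4, all below those of the 4, and their untagged tags 2.5 to 7.0. The pyk1 peak (count 2684.6, 15.5 untagged tags) was inside the ranges of the 4 in both values but farther from the median. The closest, at urg1 (GTP cyclohydrolase II), had a count of 2013.4 at rank 22 over 5.5 tags and was 263 kb from a Sak1 peak. All 5 held the forkhead word within 150 bp and none an RFX word. Over all 116 Fkh2 peaks without Sak1 the shares were 72.4% and 6.90%, so nothing is read from these counts. The pyk1 peak held the forkhead word, an RFX word and ACGCGT within 150 bp. Of the 5, SPAC27E2.01 is annotated as a glycosyl hydrolase of family 13, tps1 as a trehalose phosphate synthase and atf21 as a transcription factor of the Atf-CREB family.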

How the data were processed

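ChIP-seq peak lists of Fkh2-TAP, Sak1-TAP and Sep1-TAP were analysed, each called against the untagged library. The submitters' processing notes name HOMER, SAMtools 0.1.18 and Bowtie2 2.1.0, without roles, and no source used here names the genome build. Per the file headers, findPeaks was run in factor style at a false discovery rate of 0.001, with 4 fold and Poisson p of 1e-04 required over the untagged library and over 10000 bp around. The deposited normalised tag count is a coverage signal per 10000000 tags. Per the file headers, fold values are ratios, the focus ratio is a fraction and the findPeaks score is a score; the deposited p-values were not used.

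Tags were recovered from counts and header totals. Poisson, binomial and conditional binomial 95% intervals were exact and cover counting error only. No test was made: each factor has 1 pooled library, and the members, lists and words were chosen with earlier results of these data known. Coordinates were read against ASM294v3: the forkhead word lay at 112 of 152 Fkh2 peaks and at 5 to 19 after shifts of 1000 to 5000 bp. Word and overlap searches were tested on simulated data. A list of gst and gto symbols had been planned as the family of gto1, which the annotation gives as an alpha-glucosidase; of its 6 genes gto1 alone was reached, and the alpha-glucosidase list was added. Named are the 4 genes, their flanking genes, the peaks next to them by count, peaks without Sak1 at or above the lowest of them, and the 5 most like them. Python 3.11.15 with SciPy 1.17.1 was used.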

Additional observations from a re-analysis of the deposited data

How the results depend on the processing

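Counting centres within 250, 500 or 1000 bp as shared, or requiring 8 fold over the untagged library, could not change the lack of Sak1 at the 4 peaks, since the nearest Sak1 centre was 25271 bp away and the lowest fold 10.42. With a reach of 500 bp upstream and 0 bp downstream and no rule on the nearest start, 2 peaks were found (gto1 and eis1), and no gene named ubp or uch was reached (0). The median rank of the 4 was 12.5 by tag count, 20.5 by fold over the local background and 36.5 by fold over the untagged library. The fold at gto1 was 372 as listed, 62.0 over at least 3 untagged tags (an alternative chosen after seeing the data) and 31.1 over the genome-wide mean of 5.98 tags. Ranked by fold, 51 of the 78 Fkh2 peaks at or above the lowest fold of the 4 had no Sak1 peak, against 6 of 20 by count. That lowest fold, 10.42, was near the median of 10.6 over all Fkh2 peaks. The 78 thus reach farther down their list than the 20, and the 2 shares are not alike. The cause of the shifts was not tested; ubp11, at rank 9 by count and 78 by fold, had 17.5 untagged tags. Of 49 alternative values, 35 did not move beyond counting error or, for counts and ranks, 1.5 times, the word counts among them. Several of the 35 could not move, such as the lack of Sak1 and the fold at ubp11, so their number is no measure of stability. The RFX words, absent within 150 bp, lay at 1 of the 4 peaks within 250 bp, a window not among the alternatives for them. No paired analysis was possible because each group is 1 pooled library. The depth of about 486279 untagged tags, a mean of 5.98 per peak width, limits the fold at gto1 most. At ubp11, with 17.5 untagged tags, neither other setting of the untagged tags could change the fold of 10.4.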
